A study of Mus musculus with 30 samples.

Results

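The interferon-inducible GTPases described here are 9 mouse genes taken by name: the guanylate-binding protein genes Gbp2, Gbp3, Gbp4, Gbp5 and Gbp7 and the immunity-related GTPase genes Irgm1, Irgm2, Igtp and Iigp1. All 9 were found in each of the 4 bulk count tables and in both single-cell matrices, against 56691 genes in the largest table. Each of the 9 also passed the filter on low counts in every bulk table, which a gene can do through a single group. The study cultured primary cardiac fibroblasts (CFs) from hearts of mice labelled wild type and compared them by age and during direct reprogramming, in which 3 cardiac transcription factors, Mef2c, Gata4 and Tbx5 (together MGT), turn fibroblasts toward cardiomyocyte-like cells. Untransduced CFs were neonatal (postnatal day 1 to 3), 3, 12 or 24 months old and had been cultured for 3 days. A second set received MGT or the control LacZ at neonatal age, 3 months or 18 months and was harvested at day 3. The columns of the 18-month groups are named for 15 months, and those of the 12-month CFs for 13, so these ages follow the labels and are in doubt. In neonatal CFs the nuclear receptor gene Nr4a3 was overexpressed (OENr4a3) or a control was used (OECtrl), at day 10 by the labels. In MGT-transduced 3-month CFs a short hairpin against Nr4a3 (MGT+shNr4a3) was set against a non-targeting one (MGT+shNT) at day 7. Each of these 14 groups had n = 2 libraries, and single cells after MGT came from 1 library of 24-month and 1 of neonatal CFs. Whether the 2 libraries of a group came from different animals or cultures is not stated in the labels, and the p-values below reflect the spread between libraries alone, which may be technical.

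Guanylate-binding proteins and immunity-related GTPases are dynamin-like and smaller GTPases whose genes are switched on by interferons, through transcription factors that bind gamma-activated sequences and interferon-stimulated response elements, STAT2 and IRF9 among those of the second kind. In mouse macrophages and fibroblasts they gather on the vacuoles of intracellular pathogens. Iigp1 is an effector of this kind, whereas Irgm1, Irgm2 and Igtp (also called Irgm3) are the regulatory members that hold effectors off the host's own membranes.

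The promoters were searched for the letters of both response elements. A core of the interferon-stimulated response element was found in all 7 genes with a promoter window, and a gamma-activated sequence in 4 of them. Stretches around the matches are shown because interferon signalling is known to act through elements of these kinds. RefSeq promoter windows (GRCm38.p6, 250 bases before to 50 after a start site) were found for 7 of the 9 genes, with 2 windows for Gbp3, and none was found for Gbp4 or Iigp1. Both strands were searched for the core of the interferon-stimulated response element, written GAAA, any 2 bases, GAAA, and for the gamma-activated sequence TTCNNNGAA. Capitals mark these matches, given 5′ to 3′ on the strand of the gene; a core on the other strand reads TTTC, 2 bases, TTTC.
Gbp2, chr3:142620589-142620628, plus strand: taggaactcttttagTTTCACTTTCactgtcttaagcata
Gbp3, chr3:142559984-142560029, plus strand: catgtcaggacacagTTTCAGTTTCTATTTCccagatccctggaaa
Gbp5, chr3:142496684-142496905, plus strand: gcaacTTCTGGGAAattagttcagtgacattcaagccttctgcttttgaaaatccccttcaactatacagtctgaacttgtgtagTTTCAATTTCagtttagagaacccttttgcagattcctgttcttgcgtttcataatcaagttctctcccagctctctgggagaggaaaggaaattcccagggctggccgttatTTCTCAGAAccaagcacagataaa
Gbp7, chr3:142530215-142530307, plus strand: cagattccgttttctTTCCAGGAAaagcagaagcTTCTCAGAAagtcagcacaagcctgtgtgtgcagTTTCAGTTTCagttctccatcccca
Irgm1, chr11:48871420-48871465, minus strand: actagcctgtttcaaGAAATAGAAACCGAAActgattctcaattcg
Irgm2, chr11:58214887-58214937, plus strand: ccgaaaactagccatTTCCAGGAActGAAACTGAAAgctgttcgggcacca
Igtp, chr11:58199496-58199546, plus strand: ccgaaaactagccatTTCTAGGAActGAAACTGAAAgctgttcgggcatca

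All 7 genes had at least 1 response element core, which 1131 of 32851 RefSeq promoter windows hold (3.44%). A gamma-activated sequence was present in 4 of the 7 (Gbp5, Gbp7, Irgm2 and Igtp), against 2726 windows (8.3%), and those 4 were also the ones with both motifs, against 149 windows (0.454%). The 2 motifs did not overlap in any of these stretches, and the second window of Gbp3 held neither. In Gbp3 and Irgm1 the capitals are 2 overlapping cores, which begin 45 and 39 bases before the start in Gbp3 and 30 and 24 bases before it in Irgm1. The stretches of Irgm2 and Igtp were identical at 49 of 51 bases and differed by C19T and C49T, counted from the first base of the stretch with the Irgm2 base first. A match is a description of letters in the window and not a measurement of binding.

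In the GRCm38 annotation 4 of the guanylate-binding protein genes lie together on the plus strand of chromosome 3: Gbp5 (chr3:142493978-142522344), Gbp7 (chr3:142530342-142550149), Gbp3 (chr3:142560026-142573209) and Gbp2 (chr3:142620602-142638008). Gbp4 lies on the minus strand of chromosome 5 (chr5:105115767-105139586). Irgm1 lies on the minus strand of chromosome 11 (chr11:48861968-48871683), and Irgm2 (chr11:58199618-58222782) and Igtp (chr11:58199556-58207591) overlap on its plus strand. Iigp1 lies on the plus strand of chromosome 18 (chr18:60376027-60392634). All 9 are annotated as protein coding. Irgm2 and Igtp share 162 exonic bases on the same strand, 4.39% of the exonic bases of Irgm2 and 8.01% of those of Igtp. Gbp4 shares 61 and 60 exonic bases with Gbp8 and Gbp9, and Gbp7 shares 637 (11.3%) with the pseudogene Gm43802. How reads in these bases, and reads that match several of these related genes, were assigned is not given in the sources used here, so the values of these genes are uncertain to that extent.

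Depth was 17.3 to 22.3 M counts (M, mega) per library in untransduced CFs, 14.5 to 18.8 in MGT and LacZ cells, 14.3 to 18.4 in the overexpression and 39.7 to 43.4 in the knockdown. Nr4a3 had 177 ± 1.72 CPM in OENr4a3 cells and 2.17 ± 0.45 CPM in OECtrl cells (SD, n = 2 each), and 0.587 ± 0.221 CPM in MGT+shNr4a3 cells and 8.51 ± 0.468 CPM in MGT+shNT cells. Xist, expressed from the inactive X chromosome of females, averaged 1280 CPM in neonatal, 0.464 in 3-month, 0.367 in 12-month and 804 in 24-month CFs. It averaged 483 CPM in neonatal MGT and 532 CPM in neonatal LacZ cells and at most 0.54 CPM at the other ages, so age and sex of the animals cannot be told apart in several comparisons. The 8 fibroblast markers summed to 11900 to 17200 CPM in the CF libraries. Cardiomyocyte markers summed to 9.94 to 33.7 CPM in adult and to 1140 and 1050 CPM in neonatal CFs, and epicardial markers to 1.29 to 6.34 CPM in adult and 161 and 165 CPM in neonatal CFs.

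Adult CFs carried more transcript of 8 of the 9 GTPases than neonatal CFs, and Irgm1 was the exception. At 3 months 8 of 9 rose and 0 fell, at 12 months 8 rose and Irgm1 fell, and at 24 months 8 rose and Irgm1 fell (edgeR quasi-likelihood test, Benjamini-Hochberg adjusted p under 0.05). The same rule called 52.5%, 55.2% and 54.5% of all 16466 tested genes at 3, 12 and 24 months, and 28%, 29.7% and 27.9% higher. The members' median log2 fold change was 3.79, 2.65 and 3.91, where that of all tested genes was 0.01, 0.03 and -0.01. In such bulk libraries fewer cells of a type and less RNA per cell cannot be told apart.

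Among the guanylate-binding proteins, Gbp2, which coats pathogen vacuoles in mouse cells, had 6.29 and 4.43 CPM in the neonatal libraries, 72.2 and 78.8 at 3 months, 48.4 and 51.8 at 12 months and 84.5 and 91.4 at 24 months. Gbp3 had 4.46 and 3.75 CPM in neonatal CFs, 115 and 100 at 3 months, 42.3 and 51.2 at 12 months and 99.1 and 102 at 24 months. Both neonatal libraries lay below every adult library for both genes. Gbp5, which is linked to inflammasome assembly in mouse macrophages, had 0.375 and 0.625 CPM in neonatal CFs, 14.8 and 20.8 at 3 months, 7.05 and 8.36 at 12 months and 9.8 and 11.3 at 24 months. Gbp7 had 11.5 and 9.78 CPM in neonatal CFs, 64.6 and 74.7 at 3 months, 33.9 and 35.6 at 12 months and 51.6 and 53.8 at 24 months. Gbp4 was the least abundant, with 8 and 2 counts in the neonatal libraries and 22 to 104 in the adult ones. Its CPM were 0.375 and 0.114 in neonatal CFs, 2.83 and 4.98 at 3 months, 1.26 and 1.99 at 12 months and 3.61 and 4.28 at 24 months. The log2 fold changes at 3 months against neonatal ran from 2.7 ± 0.0878 (SE) for Gbp7 to 5.17 ± 0.25 for Gbp5, with adjusted p of at most 2.93e-09 in edgeR.

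Among the immunity-related GTPases, the effector gene Iigp1 moved furthest, with 2.2 and 2.33 CPM in neonatal CFs, 107 and 133 at 3 months, 31.2 and 43.3 at 12 months and 83.6 and 78.4 at 24 months. At 24 months against neonatal its log2 fold change was 5.16 ± 0.299 (adjusted p = 4.81e-05, edgeR), a 35.7-fold higher level. Irgm2 had 11.6 and 10.6 CPM in neonatal CFs, 114 and 126 at 3 months, 47.7 and 55.4 at 12 months and 89 and 90.8 at 24 months. The regulators Irgm2 and Igtp thus sat with the effectors, low in both neonatal and high in every adult library. Igtp had 3.89 and 4.15 CPM in neonatal CFs, 37.1 and 42.9 at 3 months, 10.7 and 14.1 at 12 months and 29.3 and 26.6 at 24 months. Irgm1, the regulator best known for mycobacterial defence and for restraining interferon responses in mice, had 161 and 164 CPM in neonatal CFs, 149 and 164 at 3 months, 64.3 and 65.8 at 12 months and 115 and 107 at 24 months. It was 1.47-fold lower at 24 months than in neonatal CFs (log2 fold change -0.56 ± 0.0503, adjusted p = 2.55e-11, edgeR), and at 3 months the neonatal and adult libraries overlapped (-0.06 ± 0.049, adjusted p = 0.335).

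**Figure D1:**
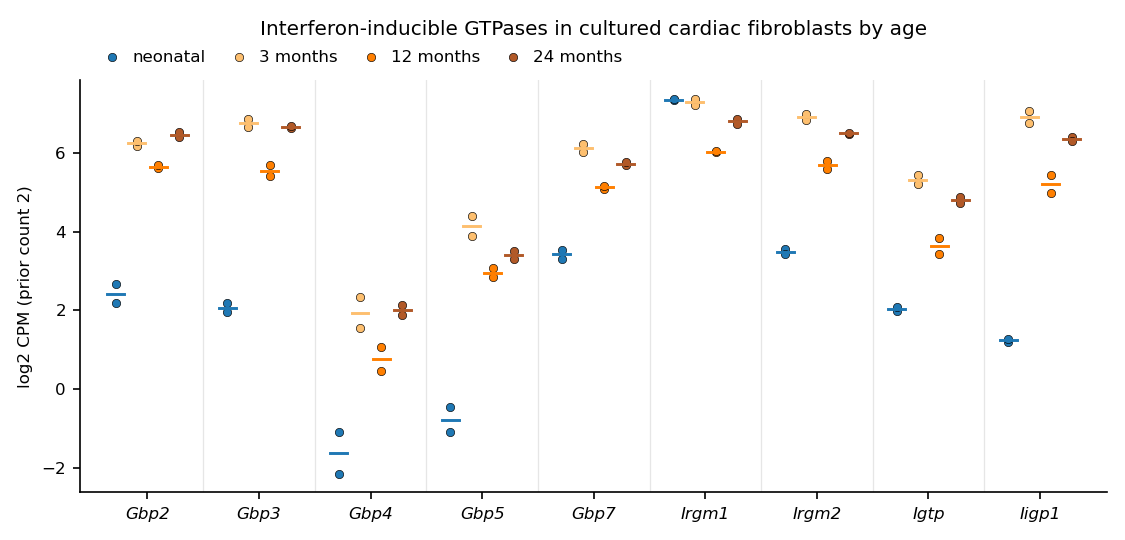
Log2 CPM (prior count 2) of each GTPase in untransduced cardiac fibroblasts, 1 point per library and a bar at the mean of n = 2 libraries, by age. For 8 genes both neonatal points lie below all adult points, and for Irgm1 the neonatal points lie with or above the adult ones. How many of all tested genes separate in this way was not counted.

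Per kilobase of exonic length, Irgm1 was the most abundant member in neonatal CFs, with 28.0 ± 0.343 CPM per kb (SD, n = 2), followed by Irgm2 with 3.02 ± 0.192. It held 72.2% of the members' summed CPM per kb there and 15.1% at 3 months. At 3 months Gbp3 (32.9 ± 3.06 CPM per kb), Irgm2 (32.5 ± 2.24), Gbp2 (30.0 ± 1.84) and Irgm1 (26.9 ± 1.82) led, and the first 3 did not differ beyond their spread. At 12 months Gbp2 led (19.9 ± 0.963 CPM per kb), and Gbp3 (14.3 ± 1.93) and Irgm2 (14.0 ± 1.48) did not differ beyond theirs. At 24 months the order was Gbp2 (35.0 ± 1.94), Gbp3 (30.8 ± 0.576), Irgm2 (24.4 ± 0.357) and Irgm1 (19.1 ± 1.0 CPM per kb). Gbp5 and Gbp4 were the lowest of the 9 at every age. Over the 8 CF libraries the log2 CPM of the other 8 members correlated with each other at r = 0.927 to 0.999, and Irgm1 correlated with them at -0.396 to -0.046. These r describe libraries that share their age groups.

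Adult ages also differed among themselves, and Irgm1 then moved with the rest. At 12 months all 9 members were lower than at 3 months, where 28.5% of tested genes were called, with a median log2 fold change of -1.22 and the largest falls in Igtp (-1.68 ± 0.106, adjusted p = 1.05e-13, edgeR) and Iigp1 (-1.68 ± 0.178, adjusted p = 0.00171). At 24 months all 9 were higher than at 12 months, where 18.9% of tested genes were called, with log2 fold changes from 0.44 ± 0.158 for Gbp5 to 1.26 ± 0.289 for Gbp4. At 24 against 3 months 1 member rose (Gbp2) and 5 fell (Gbp5, Gbp7, Irgm1, Irgm2 and Igtp), where 18.3% of tested genes were called, and no log2 fold change was larger in size than that of Gbp5 (-0.76 ± 0.139). Irgm1 was 1.7-fold higher at 24 than at 12 months and Iigp1 2.16-fold. Some of these calls rest on 1 library. The fall of Gbp4 at 12 months gave adjusted p = 0.0887 (log2 fold change -0.78) without the second 3-month library, and the rise of Gbp2 at 24 over 3 months gave 0.19 (0.17) without the second 24-month and 0.209 (0.16) without the first 3-month library. At 24 over 12 months the adjusted p of Gbp5 was 0.273 (0.33), 0.0612 (0.58) and 0.289 (0.34) without the first 12-month, second 12-month or second 24-month library, and that of Iigp1 was 0.0851 (1.06) and 0.0815 (1.16) without the first or second 24-month library.

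The rest of the interferon pathway was measured with lists of genes. Of 12 tested other interferon-inducible GTPases, 9 rose and 1 fell at 3 months against neonatal CFs, 8 rose and 1 fell at 12 months, and 9 rose and 0 fell at 24 months. Gbp6, a further guanylate-binding protein gene, averaged 0.787 CPM in neonatal, 16.9 in 3-month, 8.98 in 12-month and 13.6 in 24-month CFs. Among the transcription factors of the pathway, Stat2 rose by a log2 fold change of 2.42 ± 0.0562, Irf9 by 1.6 ± 0.0717 and Irf1 by 1.07 ± 0.0925 at 3 months (adjusted p at most 1.03e-11, edgeR). Of 8 receptor and kinase genes, 5 rose and 2 fell at each adult age. Of the interferon receptor chains, Ifnar2 (1.24 ± 0.0629), Ifngr1 (1.2 ± 0.0515) and Ifnar1 (0.27 ± 0.0526) rose and Ifngr2 fell (-0.81 ± 0.0551) at 3 months, and the 3 rises and the fall were also called at 24 months. None of the 11 interferon genes looked for passed the filter in this table. Ifng had 0 counts in all 8 libraries and Ifnb1 had 0 to 2.

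Feedback inhibitors, of which 4 of 5 rose and 0 fell at each adult age, included Socs3 and Usp18, both of which act on interferon or cytokine signalling. Usp18 rose by a log2 fold change of 3.94 ± 0.116 and Socs3 by 2.35 ± 0.0695 at 3 months (edgeR adjusted p at most 8e-24). Of 10 genes of the ubiquitin-like conjugation machinery that helps place these GTPases, 6, 7 and 7 rose and 0 fell at 3, 12 and 24 months, but the list median was at most 0.3. Of 7 tested inflammasome genes, 4, 5 and 5 rose and 1 fell each time. Casp4, which encodes an inflammatory caspase, rose by 2.15 ± 0.0888, Gsdmd, which encodes the pore-forming gasdermin D, by 1.22 ± 0.0869, and Aim2, a DNA sensor, fell by 0.94 on the log2 scale at 3 months. Macrophages also express these GTPases. The 10 macrophage markers summed to 157 to 262 CPM in the adult and to 365 and 360 CPM in the neonatal CF libraries, with 0 of 10 called higher at any adult age. The 8 endothelial markers summed to 135 to 259 CPM in adult and 966 and 979 in neonatal CFs, and 7 of 10 lymphocyte markers were at 0 in neonatal, 3-month and 12-month and 4 in 24-month libraries. Pericyte and smooth muscle markers summed to 660 to 982 CPM in adult and 1030 and 1020 CPM in neonatal CFs. The part of these cell types in the rise of the GTPases was not tested.

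In MGT cells the GTPases were lower than in LacZ cells of the same age at neonatal age and at 3 months, and mostly not called at 18 months. All 9 fell at 3 months, where 17.4% of 16368 tested genes were called, with a median log2 fold change of -1.43 against -0.01 over all genes. In neonatal cells 5 fell (Gbp2, Gbp3, Gbp4, Gbp5 and Igtp), where 7.51% of tested genes were called, with a median of -0.61. At 18 months 0 fell and Gbp4 was called higher, where 16.6% of tested genes were called, with a median of -0.34.

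Iigp1 had 47.9 and 50 CPM in 3-month MGT cells, against 226 and 230 CPM in 3-month LacZ cells, a 4.66-fold lower level (log2 fold change -2.22 ± 0.297, adjusted p = 0.00218, edgeR). In neonatal cells it had 72.1 and 52.5 CPM after MGT and 111 and 139 CPM after LacZ, which did not overlap but missed the threshold (-1 ± 0.287, adjusted p = 0.111). In 18-month cells it had 5.59 and 4.69 CPM after MGT and 6.32 and 14.8 CPM after LacZ. At each age both MGT libraries thus lay below both LacZ libraries, and at 18 months the second LacZ library stood well above the other three. Gbp5 had 4.34 and 3.65 CPM in 3-month MGT cells and 26.7 and 19.3 CPM in 3-month LacZ cells (-2.51 ± 0.213, adjusted p = 1.7e-09), and 8.26 and 7.51 CPM in neonatal MGT cells and 16.5 and 19.1 CPM in neonatal LacZ cells (-1.17 ± 0.193, adjusted p = 0.000118). At 18 months Gbp5 overlapped, with 1.26 and 0.812 CPM after MGT and 0.579 and 1.37 CPM after LacZ. Gbp4 fell 12.7-fold at 3 months, to 0.682 and 0.276 CPM in MGT cells, against 8.19 and 4.43 CPM in LacZ cells.

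Irgm1 had 205 and 209 CPM in 3-month MGT cells and 402 and 436 CPM in 3-month LacZ cells, a 2.02-fold lower level (-1.02 ± 0.168, adjusted p = 0.00177, edgeR). Here it moved with the other members, with fold changes for all 9 between 1.8-fold lower for Gbp2 and 12.7-fold lower for Gbp4. In neonatal cells Irgm1 had 470 and 452 CPM after MGT and 542 and 535 CPM after LacZ (-0.22 ± 0.164, adjusted p = 0.615). Igtp had 28.8 and 30.1 CPM in 3-month MGT cells and 83.5 and 95.9 CPM in 3-month LacZ cells, and 59.9 and 47.4 CPM in neonatal MGT cells and 73.4 and 87.1 CPM in neonatal LacZ cells. Both gaps in Igtp were called and neither pair of groups overlapped. Irgm2 had 68.1 and 75.2 CPM in 3-month MGT cells and 171 and 160 CPM in 3-month LacZ cells (-1.21 ± 0.151, adjusted p = 5.94e-05). The Gbp4 call at 18 months rests on few reads, with 15 counts in both MGT libraries together and 1 in both LacZ libraries, a ratio of 15.7 with an exact interval of 2.41 to 659 that covers counting error only. It was lost without the second MGT library (adjusted p = 0.313) and without the first or second LacZ library (0.204 and 0.0617).

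**Figure D2:**
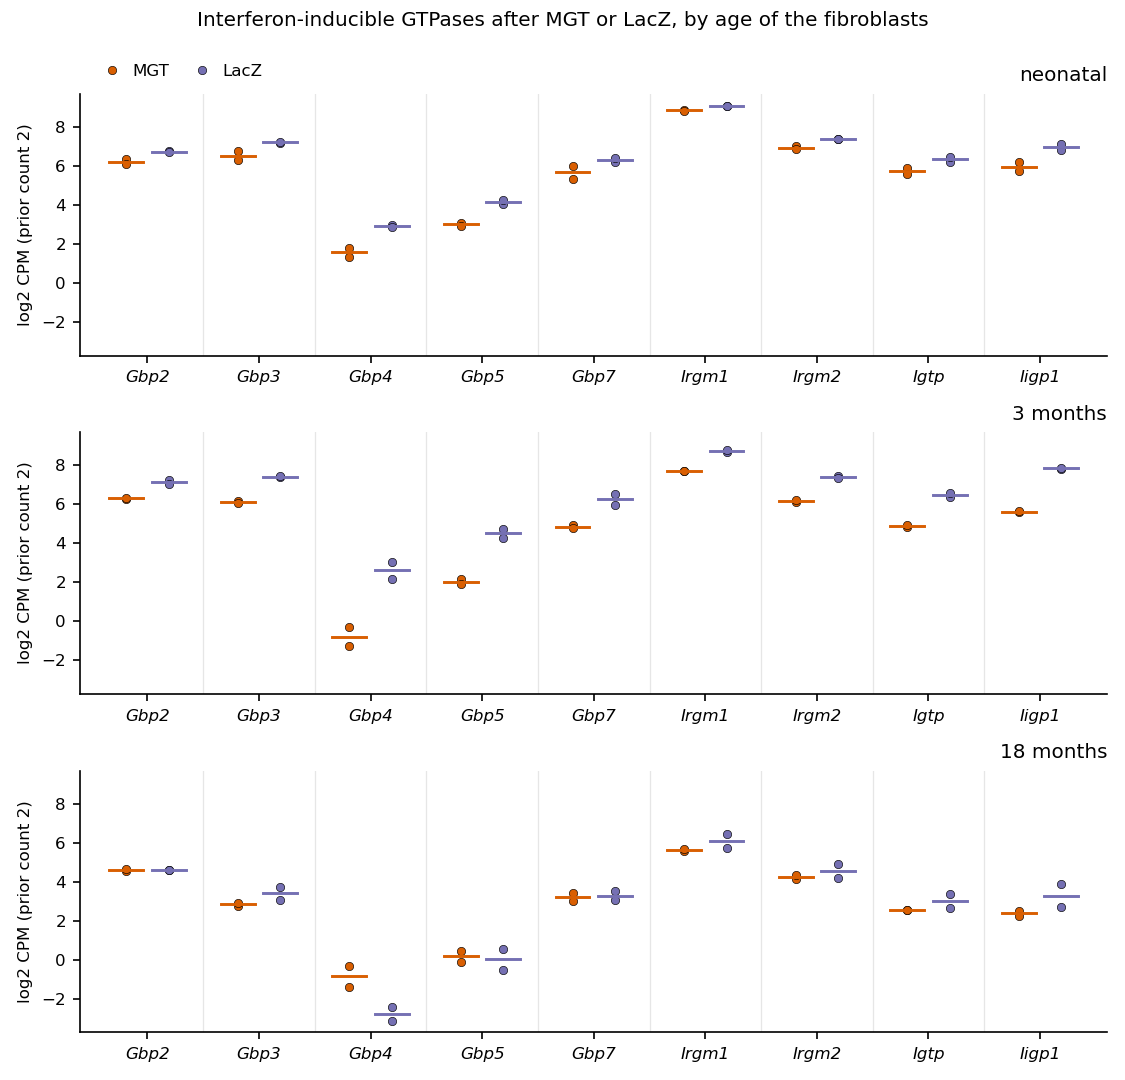
Log2 CPM (prior count 2) of each GTPase in MGT and LacZ cells, 1 point per library and a bar at the mean of n = 2, with 1 panel for each age. At 3 months every MGT point lies below every LacZ point of the same gene, and at 18 months every point lies below the neonatal points of the same gene and group. How many of all tested genes separate in these ways was not counted.

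Several neonatal calls depended on 1 library: without the second neonatal MGT library only Gbp5 of the 5 stayed called (adjusted p of Gbp2, Gbp3, Gbp4 and Igtp 0.0737, 0.069, 0.107 and 0.233). Without the first neonatal LacZ library Gbp3 and Gbp4 were lost (0.0975 and 0.0588), and without the second Gbp3 and Igtp (0.113 and 0.243). At 3 months Gbp7 was lost without the first LacZ or the first or second MGT library (0.0505, 0.084 and 0.101) and Irgm1 without the second LacZ library (0.0602). Cardiomyocyte markers summed to 1030 and 1530 CPM in neonatal MGT and 340 and 293 CPM in neonatal LacZ cells, and to 359 and 388 CPM in 3-month MGT and 5.18 and 4.49 CPM in 3-month LacZ cells. At 3 months macrophage markers summed to 424 and 435 CPM after MGT and 331 and 338 CPM after LacZ, fibroblast markers to 11900 and 12500 CPM after MGT and 12700 and 12000 CPM after LacZ, and pericyte and smooth muscle markers to 306 and 320 CPM after MGT and 498 and 403 CPM after LacZ. The part of these shifts in the fall of the GTPases was not tested.

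Whether the MGT effect itself differed between ages was tested as an interaction in the same edgeR fit. The fall was larger at 3 months than in neonatal cells for Gbp5 (difference of log2 fold changes -1.34 ± 0.291, adjusted p = 0.0062), Igtp (-1.03 ± 0.212, adjusted p = 0.01) and Gbp4 (-2.32 ± 0.557, adjusted p = 0.0154), where 3.7% of tested genes were called. The fall at 3 months was also larger than the change at 18 months for 4 members, where 2.34% of tested genes were called: Gbp2 (0.87 ± 0.15, adjusted p = 0.00107), Gbp5 (2.62 ± 0.488, adjusted p = 0.00263), Igtp (1.14 ± 0.274, adjusted p = 0.0409) and Gbp4, whose value rests on the single LacZ count at 18 months. Between 18 months and neonatal cells only Gbp4 was called, where 2.82% of tested genes were called. The 3 contrasts share libraries. Without the second 3-month MGT library none of the 3 differences between 3 months and neonatal cells was called (adjusted p of Gbp4, Gbp5 and Igtp 0.154, 0.0577 and 0.0567). Igtp there was also lost without the first neonatal LacZ, second 3-month LacZ or first 3-month MGT library (0.0536, 0.066 and 0.0865), and Gbp4 without the second neonatal LacZ or first neonatal MGT library (0.0533 and 0.0843). At 18 against 3 months Igtp was lost without any single library of the 4 groups other than the second 18-month LacZ one (0.0505 to 0.259), Gbp5 without the first 18-month MGT library (0.0948) and Gbp4 without the second (0.0815). Gbp4 at 18 months against neonatal cells was lost without the first 18-month LacZ (0.109) or second 18-month MGT library (0.282).

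In LacZ cells the oldest group held the least transcript of every member. In 18-month LacZ cells all 9 members were lower than in neonatal LacZ cells, where 35% of tested genes were called, with a median log2 fold change of -3.32, and all 9 were lower than in 3-month LacZ cells, where 23% were called, with a median of -3.48. In 3-month against neonatal LacZ cells only Gbp2 rose (0.42 ± 0.0967, adjusted p = 0.00147, edgeR), where 30.9% of tested genes were called, with a median of 0.16. The summed CPM of the 9 members were 1240 and 1290 in neonatal, 1330 and 1310 in 3-month and 125 and 193 in 18-month LacZ cells. In untransduced CFs those sums were 202 and 200 at neonatal age, 677 and 745 at 3 months, 287 and 328 at 12 months and 566 and 566 at 24 months. These come from 2 tables scaled separately, at different adult ages, so no test was made between them, and the effect of transduction cannot be told apart from that of the table.

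Gbp3 fell to 8.34 and 13.2 CPM in 18-month LacZ cells, against 145 and 148 CPM in neonatal LacZ cells, a 13.6-fold lower level (-3.77 ± 0.186, adjusted p = 3.52e-09, edgeR). Irgm1 had 53.4 and 88 CPM in 18-month LacZ cells and 542 and 535 CPM in neonatal LacZ cells, a 7.63-fold lower level. Gbp2 was the least reduced, with 24 and 24.1 CPM in 18-month and 106 and 105 CPM in neonatal LacZ cells, a 4.39-fold lower level. For each gene both 18-month libraries lay below both neonatal ones. Gbp4 had 1 count in the 18-month LacZ libraries and 268 in the neonatal ones, a ratio of 0.00406 (exact interval 0.000102 to 0.0228), and against 206 counts at 3 months the ratio was 0.00484 (0.000122 to 0.0273). The median over the members is the same with these ratios in place of the fitted values.

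Fibroblast and endothelial markers summed lower in 18-month LacZ cells than at both other ages. Epicardial and cardiomyocyte markers summed lower against neonatal cells alone, and macrophage markers summed higher than at both ages. Fibroblast markers summed to 7460 and 8290 CPM there, against 12700 and 12000 CPM in 3-month and 12600 and 12300 CPM in neonatal LacZ cells, with 6 of 8 called lower and 2 higher in both comparisons. Endothelial markers summed to 21.6 and 30.5 CPM in 18-month, against 41.9 and 41 CPM in 3-month and 329 and 361 CPM in neonatal LacZ cells. Epicardial markers summed to 13.7 and 14.9 CPM in 18-month, against 8.63 and 9.26 CPM in 3-month and 730 and 670 CPM in neonatal LacZ cells. Cardiomyocyte markers summed to 5.85 and 3.48 CPM in 18-month, against 5.18 and 4.49 CPM in 3-month and 340 and 293 CPM in neonatal LacZ cells. Macrophage markers summed to 372 and 348 CPM in 18-month, against 331 and 338 CPM in 3-month and 218 and 277 CPM in neonatal LacZ cells. The part of these shifts in the fall of the GTPases was not tested.

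In MGT cells 5 members fell at 3 months against neonatal age (Gbp4, Gbp5, Irgm1, Irgm2 and Igtp), where 26.1% of tested genes were called, with a median of -0.85. At 18 months all 9 were lower than in neonatal MGT cells, where 30.6% were called, with a median of -2.92, and 8 were lower than in 3-month MGT cells, where 17.4% were called, with a median of -1.95. Gbp4 was the member not called there, at 0.251 and 0.687 CPM in 18-month and 0.682 and 0.276 CPM in 3-month MGT cells. Irgm1 had 48 and 50.6 CPM in 18-month, and 470 and 452 CPM in neonatal MGT cells, a 9.35-fold lower level (-3.23 ± 0.185, adjusted p = 2.85e-07, edgeR). The call of Gbp7 at 18 against 3 months was lost without any 1 of the 4 libraries (adjusted p 0.0568 to 0.115). Over the 12 libraries of this table Irgm1 correlated with the other members at r = 0.859 to 0.989, and these with each other at 0.828 to 0.997, as a description of libraries that share their groups.

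Other genes of the pathway followed in part. Of 13 other interferon-inducible GTPases tested, 6 fell and 0 rose after MGT in neonatal cells, 11 fell and 0 rose at 3 months, and 0 moved at 18 months, and 12 fell in 18-month against neonatal and against 3-month LacZ cells. Gm4951, an immunity-related GTPase gene, had a log2 fold change of -2.43 ± 0.185 after MGT at 3 months (adjusted p = 2.75e-09, edgeR). Among the transcription factors, Stat2 (-1.02 ± 0.165), Irf1 (-1.13 ± 0.139) and Irf9 (-0.6 ± 0.1) fell at 3 months. Of the receptor chains at 3 months, Ifngr1 fell (-0.38 ± 0.0981, adjusted p = 0.00711) and Ifngr2 rose (0.43 ± 0.0882, adjusted p = 0.000767), while Ifnar1 (0.06 ± 0.0907) and Ifnar2 (-0.22 ± 0.0852) were not called. At 18 against 3 months in LacZ cells Stat2 fell (-2.73 ± 0.18). Ifnb1 did not pass the filter, with 8 and 3 counts in the neonatal MGT libraries and 0 to 2 in the others.

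**Figure D3:**
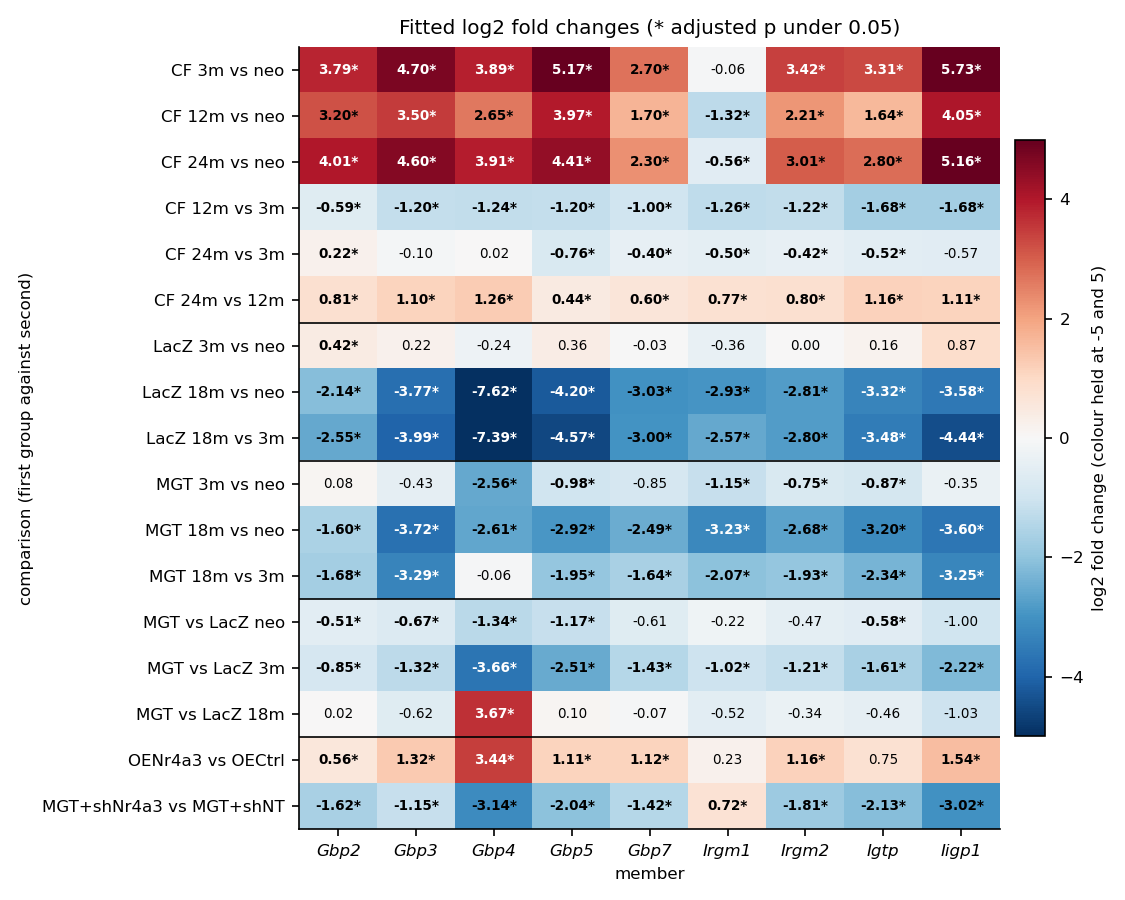
Fitted log2 fold changes of the 9 GTPases in 17 comparisons, first group against second, with a star where the adjusted p was under 0.05 and colour held at -5 and 5. Untransduced adult CFs are higher than neonatal ones for 8 genes and 18-month transduced cells lower than neonatal ones for all 9; the Gbp4 values of 18-month LacZ cells rest on 1 count.

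Overexpression of Nr4a3 in neonatal CFs went with higher levels of 7 of the 9 GTPases and 0 lower, where 22.7% of 15029 tested genes were called, with a median log2 fold change of 1.12 against -0.01 over all genes. Gbp4 had 1.93 and 2.39 CPM in OENr4a3 cells and 0.138 and 0.239 CPM in OECtrl cells, a 10.9-fold higher level (3.44 ± 0.518, adjusted p = 0.00323, edgeR). That value rests on 2 and 4 counts in the OECtrl libraries, and Gbp4 passed the filter on low counts through the OENr4a3 libraries alone. Iigp1 had 7.11 and 9.4 CPM in OENr4a3 cells, against 3.25 and 2.45 CPM in OECtrl cells (1.54 ± 0.243, adjusted p = 0.00416). Gbp3 had 23.7 and 21.6 CPM in OENr4a3 cells and 8.58 and 9.57 CPM in OECtrl cells (1.32 ± 0.146, adjusted p = 0.000659). For all of these both OENr4a3 libraries lay above both OECtrl ones. Irgm2 had 24.6 and 27.2 CPM after Nr4a3 and 12.3 and 10.9 CPM in OECtrl cells (1.16 ± 0.142, adjusted p = 0.00111), and Gbp7 had 29.9 and 32 CPM after Nr4a3 and 15.6 and 13 CPM in OECtrl cells (1.12 ± 0.14, adjusted p = 0.00128). Gbp5 had 6 and 4.62 CPM after Nr4a3 and 1.73 and 3.11 CPM in OECtrl cells, and Gbp2 40.3 and 33.8 CPM after Nr4a3 and 23.3 and 26.8 CPM in OECtrl cells. These last calls, of Gbp5 (1.11 ± 0.301) and Gbp2 (0.56 ± 0.137), were lost without the first OENr4a3 library (adjusted p = 0.138 and 0.259). Irgm1 was not called, at 167 and 157 CPM after Nr4a3 and 140 and 137 CPM in OECtrl cells (0.23 ± 0.0973, adjusted p = 0.119), nor was Igtp, at 11.3 and 7.01 CPM after Nr4a3 and 4.36 and 6.46 CPM in OECtrl cells (0.75 ± 0.27, adjusted p = 0.0734). With 1 library left out, the log2 fold change ran from 0.19 to 0.28 for Irgm1 and from 0.38 to 1.07 for Igtp.

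In the same libraries Stat2 rose by a log2 fold change of 1.05 ± 0.107 (adjusted p = 0.000378, edgeR) and Irf9 by 0.62 ± 0.109, and Irf1 was not called (0.25 ± 0.139, adjusted p = 0.219). Of 10 other interferon-inducible GTPases tested, 5 rose, among them Gbp9 (1.94 ± 0.224) and Mx2 (2.13 ± 0.296), and 1 fell, Ifi47, an immunity-related GTPase gene (-0.65 ± 0.126, adjusted p = 0.00928). None of the 4 interferon receptor chains was called. Of the conjugation machinery 1 of 10 rose and 3 fell, and of 6 inflammasome genes 0 rose and Il18 fell (-1.64 ± 0.37). Macrophage markers were lower in OENr4a3 cells, at 662 and 640 CPM against 990 and 971 CPM in OECtrl cells, as were epicardial markers, at 471 and 439 CPM in OENr4a3 cells and 978 and 1040 CPM in OECtrl cells. Pericyte and smooth muscle markers were higher, at 986 and 1040 CPM in OENr4a3 cells and 739 and 580 CPM in OECtrl cells, with 4 of 6 tested called higher and 1 lower. Xist averaged 484 ± 0.755 CPM in OENr4a3 and 253 ± 41.2 CPM in OECtrl cells, and the part of a different mix of animals or cell types in the rise of the GTPases was not tested.

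Knockdown of Nr4a3 in 3-month MGT cells went with lower levels of 8 of the 9 GTPases and a higher level of Irgm1, where 54.5% of 18045 tested genes were called and 26.7% were called lower. The median log2 fold change of the members was -1.81, against 0.01 over all genes. Iigp1 had 34.7 and 18.8 CPM in MGT+shNr4a3 cells, against 177 and 257 CPM in MGT+shNT cells, an 8.13-fold lower level (-3.02 ± 0.459, adjusted p = 0.0187, edgeR). Gbp4 had 4.24 and 4.74 CPM after knockdown and 30.5 and 48.9 CPM with shNT, an 8.84-fold lower level (-3.14 ± 0.219, adjusted p = 1.24e-06). Igtp had 33.4 and 27.6 CPM after knockdown and 110 and 157 CPM with shNT (-2.13 ± 0.171, adjusted p = 9.15e-06). In each gene both knockdown libraries lay far below both shNT libraries. Gbp5 had 12.8 and 7.18 CPM after knockdown and 32.8 and 49.2 CPM with shNT (-2.04 ± 0.358, adjusted p = 0.00893), and Irgm2 had 38.8 and 31.1 CPM after knockdown and 107 and 139 CPM with shNT (-1.81 ± 0.136, adjusted p = 6.17e-07). Gbp2 had 76.5 and 62.2 CPM after knockdown and 187 and 239 CPM with shNT. Gbp7 had 86.6 and 77.7 CPM after knockdown and 190 and 249 CPM with shNT. Gbp3, the most abundant member here, had 393 and 327 CPM after knockdown and 708 and 894 CPM with shNT (-1.15 ± 0.12, adjusted p = 8.05e-06), the smallest of the 8 falls.

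Irgm1 had 461 and 408 CPM in MGT+shNr4a3 cells and 241 and 287 CPM in MGT+shNT cells, a 1.65-fold higher level (0.72 ± 0.0991, adjusted p = 4.2e-05, edgeR). Both knockdown libraries lay above both shNT libraries, the reverse of the other 8 members. Per kilobase, Irgm1 made up 28.6% of the members' sum after knockdown and 7.64% with shNT. The calls of Igtp and Iigp1 were lost when 1 library was left out. The adjusted p of Igtp was 0.0669 without the first and 0.0501 without the second MGT+shNr4a3 library. That of Iigp1 was 0.0724 and 0.0718 without these, and 0.122 without the second MGT+shNT library.

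**Figure D4:**
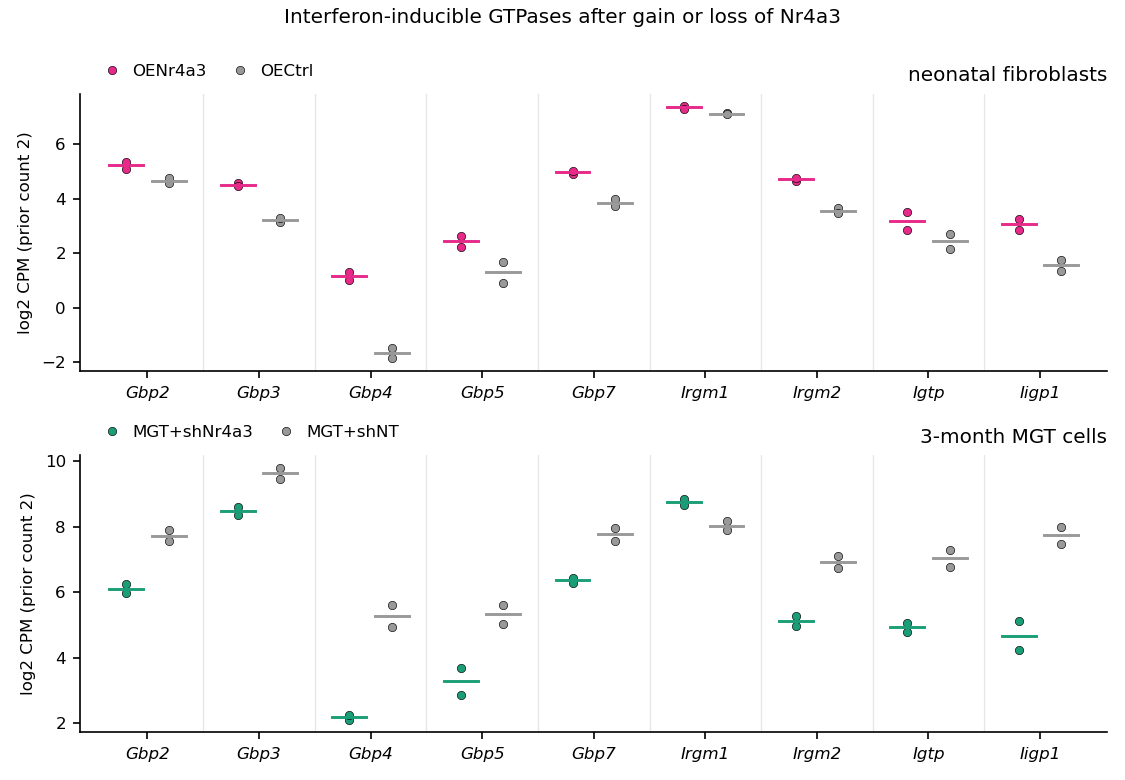
Log2 CPM (prior count 2) of each GTPase after gain of Nr4a3 in neonatal fibroblasts (upper panel, OENr4a3 and OECtrl) and after its knockdown in 3-month MGT cells (lower panel, MGT+shNr4a3 and MGT+shNT), 1 point per library and a bar at the mean of n = 2. Most genes lie higher with gained Nr4a3 and 8 lie lower after knockdown, where Irgm1 lies higher.

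Among the bulk comparisons an interferon gene was called only in the knockdown, whose libraries were the deepest (39.7 to 43.4 M counts, against at most 22.3 M elsewhere). That gene passed the filter on low counts through the MGT+shNT libraries alone. At lower depth a gene at a like level could miss the filter, so the other tables are no contrast. Ifnb1, which encodes interferon beta, had 0 counts in the MGT+shNr4a3 libraries and 14 and 12 counts in the MGT+shNT libraries. Against a floor of 3 counts over the group it was at least 8.81-fold lower. Among the transcription factors, Stat2 (-1.22 ± 0.116), Irf1 (-1.19 ± 0.131) and Irf9 (-0.71 ± 0.09) fell (adjusted p at most 2.16e-05, edgeR). Ifnar1 (-1.35 ± 0.103) and Ifnar2 (-0.79 ± 0.0886), the chains of the type I receptor, fell, and Ifngr2 of the type II receptor rose (0.91 ± 0.0908), while Ifngr1 was not called (-0.19 ± 0.0926, adjusted p = 0.105). Of 13 other interferon-inducible GTPases 12 fell and 0 rose, led by Gvin1 (-2.9 ± 0.132), Gm4951 (-3.9 ± 0.226) and Gm12250 (-2.57 ± 0.309). The feedback inhibitors fell in 4 of 5 cases. Of the conjugation machinery 3 rose, among them Atg5 (1.18 ± 0.11) and Map1lc3a (0.9 ± 0.106), and 3 fell, among them Atg7 (-1.89 ± 0.148). Of 6 inflammasome genes 5 fell, led by Gsdmd (-3.36 ± 0.193) and Casp4 (-2.08 ± 0.174). Macrophage markers summed to 117 and 113 CPM after knockdown and 164 and 128 CPM with shNT, fibroblast markers to 2950 and 2800 CPM after knockdown and 4290 and 4430 CPM with shNT, and cardiomyocyte markers to 6240 and 5450 CPM after knockdown and 11000 and 9410 CPM with shNT. The part of these shifts in the fall of the GTPases was not tested.

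The genes whose log2 CPM followed the members' mean most closely over the 8 CF and the 12 MGT and LacZ libraries were Parp14 (r = 0.999 and 0.997), Mx2 (0.994 and 0.994), Ifit1 (0.998 and 0.993), Ddx60 (0.997 and 0.992), Stat2 (0.998 and 0.991), Parp10 (0.994 and 0.991), Ifih1 (1 and 0.991) and Trim30a (0.993 and 0.99). They were taken as the 8 non-members with the highest smaller r of the 2 tables, and 137 of 15422 genes compared had a smaller r of at least 0.9. These r come from libraries that fall into age groups and are given as a description.

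Single cells after MGT were examined by library, since each age had 1. After filtering, 5773 of 6796 barcodes at 24 months and 3828 of 4816 neonatal barcodes were kept, with median depths of 20771 and 13959 UMIs, and the 2 libraries shared 11 barcodes. The summed level was lower at 24 months than in neonatal cells for 7 of the 9 GTPases, by exact 95% intervals that cover counting error only. Such intervals are narrow at 151.9 M UMIs in the kept 24-month and 122.8 M in the kept neonatal cells. They were not counted over all genes, so the number is a description of the members. Irgm1 had 64.6 CPM at 24 months (63.3 to 65.9) and 240 CPM in neonatal cells (237 to 242), a ratio of 0.269. Gbp3 had 26.5 CPM at 24 months (25.7 to 27.3) and 96.5 CPM in neonatal cells (94.7 to 98.2), a ratio of 0.275. Iigp1 had 79 CPM at 24 months (77.6 to 80.4) and 169 CPM in neonatal cells (167 to 171), a ratio of 0.468. The ratio was 0.392 for Igtp, 0.456 for Gbp7, 0.527 for Irgm2 and 0.571 for Gbp2. Gbp5, at 4.87 CPM at 24 months and 4.68 CPM in neonatal cells (ratio 1.04, 0.931 to 1.16), was not distinguishable at this depth. Gbp4 had 6.42 CPM at 24 months and 5.78 CPM in neonatal cells, a ratio of 1.11 (1.01 to 1.23). With 1 library per age there is no test, and age, library and animal cannot be told apart.

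Cell classes were rebuilt from markers after clustering without the 9 members and the interferon lists, and are not the authors' names. No class was given to 1935 cells (33.5%) at 24 months and 198 cells (5.17%) in the neonatal library. Of these, 1385 and 29 lay in a cluster of low depth with a median of 1556 UMIs. Fibroblast-like cells, in whose clusters 7 or 8 of the 8 fibroblast markers were detected in at least 25% of cells, made up 2918 cells (50.5%) at 24 months and 1279 cells (33.4%) among the neonatal ones, and different clusters held most of them, cluster 0 at 24 months and cluster 10 in neonatal cells. The name rests on detection, and the markers' median log2 fold over the other cells was 0.97 in cluster 0 and -0.34 in cluster 10. In cluster 10, 3 of 8 cardiomyocyte markers were also detected in at least 25% of cells. Irgm1 had 70.5 CPM at 24 months and 280 CPM in neonatal fibroblast-like cells (ratio 0.252, 0.245 to 0.258), and Gbp3 27.1 CPM at 24 months and 92.6 CPM in neonatal ones (0.293, 0.281 to 0.305). Macrophage-like cells held less, with Irgm1 at 29.3 CPM at 24 months and 93.6 CPM in neonatal cells, and Gbp3 at 16.5 CPM at 24 months and 49.7 CPM in neonatal cells, the same direction at a lower level. Iigp1 in macrophage-like cells had 20.1 CPM at 24 months and 23.6 CPM in neonatal cells (ratio 0.854, 0.704 to 1.04). Cardiomyocyte-like cells were 78 at 24 months and 2077 in the neonatal library, and 76 and 1545 of them lay in a cluster of low depth with a median of 2133 UMIs. In this class Iigp1 had 25 CPM at 24 months (11.4 to 47.5) and 212 CPM in neonatal cells (207 to 217), from 9 and 6738 UMIs. Different clusters held the 2 ages, since 5979 of the 6738 neonatal UMIs came from a second cluster with 532 neonatal and 2 24-month cells. Within the low-depth cluster Iigp1 had 23.5 CPM at 24 months and 123 CPM in neonatal cells (ratio 0.191, 0.0766 to 0.396). Ifnb1 had 0 UMIs at 24 months, which allows up to 0.0198 CPM at 3 counts and 0.0243 CPM by the exact interval, and 40 UMIs or 0.326 CPM in neonatal cells (0.233 to 0.444).

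**Figure D5:**
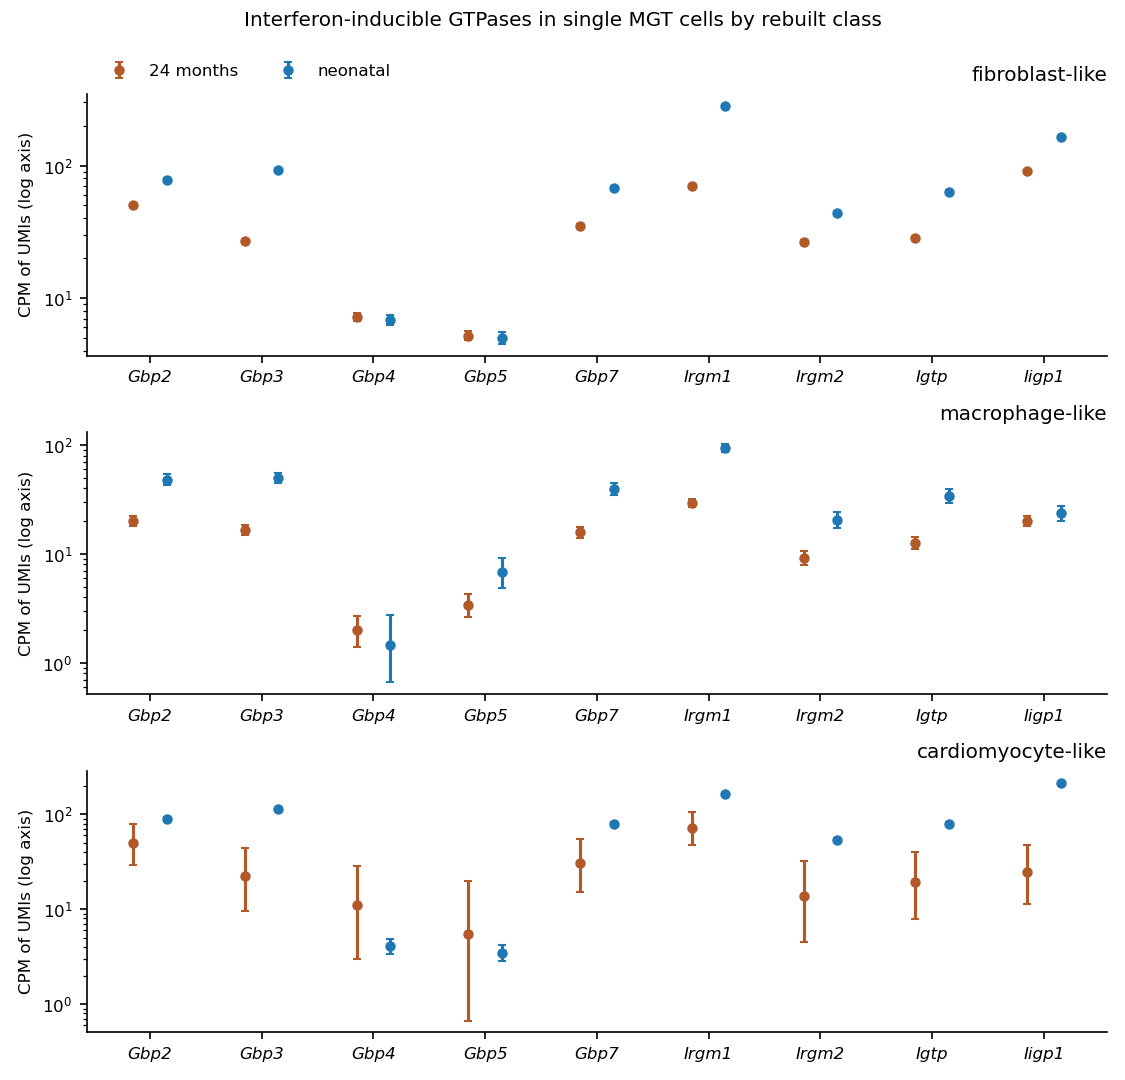
Summed level of each GTPase (CPM of UMIs, log axis) in fibroblast-like, macrophage-like and cardiomyocyte-like cells of the 24-month and the neonatal MGT library, with exact Poisson 95% intervals that cover counting error only. For the 7 genes other than Gbp4 and Gbp5 the 24-month point lies below the neonatal one in each panel.

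At 24 months much of the signal sat in few cells. A fibroblast-like cluster of 105 cells, all from the 24-month library and 1.82% of its cells, held 30.1% of the UMIs of the 9 members, from 14.3% for Irgm1 and 41.7% for Iigp1 to 67.8% for Gbp4. Iigp1 reached 1250 CPM there and Gbp2 680 CPM. The cluster was led by Cxcl10, Cmpk2 and Rsad2, which are themselves interferon-induced and took part in the clustering, so the level of the GTPases in it is a description, and a cluster from 1 library may reflect that library. Without these cells all 9 members were lower at 24 months than in neonatal cells, with Gbp4 at a ratio of 0.367 (0.321 to 0.42) and Gbp5 at 0.543. This setting was added after the data were seen, and since the cluster was picked for its member level and holds no neonatal cell, leaving it out could lower the 24-month levels only, so the direction of the shift was fixed by the choice.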

How the data were processed

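The authors deposited gene-level read counts for 28 bulk libraries in 4 tables and UMI count matrices for 2 single-cell libraries. Per the submitters' processing notes, reads were handled with Trimmomatic 0.36, featureCounts of Subread 1.5.1, SAMtools and mm10, and the aligner is not given in the sources used here. Some column names differ from the labels in age (15 months for the 18-month MGT and LacZ groups, 13 for the 12-month CFs) or control name, and groups follow the labels. Of the knockdown columns, 4 match no label and were not used. The day of the overexpression harvest is 10 in the labels but 7 in the series' design text.

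Counts were filtered with filterByExpr, scaled by TMM and fitted per table with the quasi-likelihood test of edgeR 4.0.16 (R 4.3.3, 1 coefficient per group, robust), with adjusted p over all tested genes and a threshold of 0.05. Alternatives were DESeq2 1.42.0, RLE factors, no filter, a replicate block and leaving out each library. The script was tested on simulated data. All 9 members are named in every comparison, together with ligands, receptor chains, Stat2, Irf1 and Irf9 and the most changed genes of each pathway list. The members and lists were chosen with earlier results of these data known. A further gene of the pathway, and the list that holds it, are not reported here.

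Barcodes under 500 genes or over 20% mitochondrial counts were dropped, and the rest were clustered, without the members and the interferon lists, in scanpy 1.11.5 (2000 variable genes, 50 components, 15 neighbours, Leiden resolution 0.5, 13 clusters). Doublets were not called or removed. Intervals are exact at 95% (Poisson for CPM, binomial for ratios) and cover counting error only.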

Additional observations from a re-analysis of the deposited data

Results flagged for a closer look

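The effect of MGT against LacZ differed between ages by the interaction test of edgeR in 8 cases. Between 3 months and neonatal cells the difference of log2 fold changes was -2.32 for Gbp4, -1.34 for Gbp5 and -1.03 for Igtp. Between 18 months and neonatal cells it was 5.01 for Gbp4. Between 18 and 3 months it was 0.87 for Gbp2, 7.33 for Gbp4, 2.62 for Gbp5 and 1.14 for Igtp. The Gbp4 values that involve 18 months rest on 1 count in both LacZ libraries together. Of these 8 differences, the one of Gbp2 kept its call when any single library was left out.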

How the results depend on the processing

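Of 180 bulk member values, 180 kept direction and side of the threshold with RLE factors, 169 with DESeq2 and 163 without the filter. In MGT against LacZ cells at 18 months 5 members were called without the filter and 2 with DESeq2. Without the filter 6 differed in the MGT effect between 3 months and neonatal cells, 2 between 18 months and neonatal cells and 7 between 18 and 3 months, and 2 in 3-month against neonatal LacZ cells. In CFs at 24 against 3 months DESeq2 called 5. The share of all tested genes called under each setting is not given here, so these counts describe the members alone. The cause of the differences was not tested.

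Leaving out each library leaves 1 sample in a group, assumed to vary like the others. The number of members called then ran from 5 to 6 in CFs at 24 against 3 months, 1 to 6 in neonatal and 0 to 5 in 18-month MGT against LacZ cells, and 1 to 2 in 3-month against neonatal LacZ cells. For the difference in MGT effect it ran from 0 to 4 (3 months and neonatal), 0 to 2 (18 months and neonatal) and 2 to 8 (18 and 3 months). Of 828 log2 fold changes with 1 library left out, 29 changed sign, in 17 results, and 0 of these belonged to a called member.
Their log2 fold changes, lowest to highest, were as follows. The range in 3-month against neonatal CFs was Irgm1 -0.13 to 0.01. The range in 24-month against 3-month CFs was Gbp4 -0.34 to 0.48, Gbp3 -0.19 to 0. The range in 18-month MGT against LacZ cells was Gbp5 -0.4 to 0.83, Gbp7 -0.28 to 0.19, Irgm2 -0.65 to 0.07, Gbp2 -0.04 to 0.08. The range for the MGT effect at 18 months minus neonatal was Iigp1 -0.52 to 0.71, Igtp -0.21 to 0.52, Gbp3 -0.25 to 0.42, Irgm2 -0.19 to 0.53, Irgm1 -0.61 to 0.11. The range in 3-month against neonatal MGT cells was Gbp2 -0.06 to 0.22. The range in 18-month against 3-month MGT cells was Gbp4 -0.95 to 0.74. The range in 3-month against neonatal LacZ cells was Gbp7 -0.34 to 0.23, Gbp4 -0.73 to 0.14, Irgm2 -0.05 to 0.04.

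The replicate numbers showed no pairing of the samples, with correlations of -0.078 to 0.069 between the deviations of same-numbered libraries. With n = 2 per group such correlations cannot exclude animals or cultures shared between groups. With the replicate block 2 members were called in MGT against LacZ cells at 18 months, a count given without the share of all genes. Of 180 values, 175 kept their side of the threshold.

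In single cells thinning to 2000 UMIs per cell left out 1225 cells at 24 months and 826 neonatal cells. The Gbp4 ratio was then 0.9 (0.6 to 1.36), not distinguishable from 1. The ratios of all members but Irgm1 (0.267, main interval 0.263 to 0.276) lay below their main intervals, among them Gbp5 at 0.677 (0.427 to 1.07) and Gbp2 at 0.462 (0.403 to 0.53). Without the cluster of highest member level the Gbp4 ratio was 0.367. That setting was added after seeing the data and could only lower the 24-month level. In the bulk libraries Gbp4 was near the floor in 18-month LacZ cells, with 0 and 1 counts at depths of 17.2 and 16 M counts.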
